A study of Chlorocebus aethiops with 12 samples.

Results

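The genes described here are 36 components and targets of the Wnt pathway, chosen by RefSeq accession as the receptors, ligands, antagonists, cytoplasmic proteins, transcription factors and usual target genes of a pathway that meets MDFIC at 2 of its proteins, Axin and LEF1. The array design held 32379 accessions, and 34 of the 36 had a probe among them. ZNRF3 and WNT5B had none under the accession used. Of the 34, 32 were well above background on all 12 arrays and were tested among 24587 accessions. LGR5, a receptor for R-spondins, and TNFRSF19, a receptor of the tumour necrosis factor family, were well above background on 0 arrays and were not tested. The files pair no probe with a gene name, so each gene is known by its accession, and its symbol is the one listed with the accession when the genes were chosen.

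COS-1, the cell line used, grows as fibroblast-like cells and comes from the kidney of an African green monkey, and its RNA was measured on one-colour arrays that carry human probes. All cells had received by transfection a plasmid for S211A, a form of the glucocorticoid receptor (GR) in which a phosphorylated serine is replaced by alanine. The 4 groups were S211A vehicle, S211A Dex, S211A+MDFIC vehicle and S211A+MDFIC Dex, with 3 biological replicates in each per the labels. The MDFIC groups had also received MDFIC, and Dex was dexamethasone, a synthetic glucocorticoid, at 100 nM for 6 h in cells kept in charcoal-stripped serum. No group with the unmutated receptor, and none without transfected receptor, was analysed here, and a transfected culture mixes cells that took up the plasmids with cells that did not. The series asks whether the effect of MDFIC on GR-regulated transcription depends on that serine.

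In the canonical Wnt pathway a secreted Wnt ligand binds a Frizzled receptor (FZD) together with LRP5 or LRP6, and Dishevelled (DVL) relays the signal. Without a ligand, a complex of Axin, APC and the kinase GSK3B marks beta-catenin (CTNNB1) for destruction; with a ligand, beta-catenin accumulates and works with TCF and LEF factors at target genes. Many targets are themselves inhibitors, such as AXIN2, NKD1, DKK1 and APCDD1, so that the pathway restrains itself. MDFIC, a protein related to the MyoD family inhibitor, is known to bind Axin and LEF1 and also the unliganded GR.

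Pearson correlations between arrays of 1 group, taken across the tested accessions, ran from 0.986 to 0.996, and 0 spots were saturated. Between 67.8% and 71.7% of probes were well above background on the arrays of slide 1, where slide 2 had 76.2% to 79.8% and slide 3 had 76.5% to 80.7%, so that slide 1 stood below the other slides with no overlap. Group and slide overlap in part: all S211A vehicle arrays shared slide 1 with replicate 1 of S211A Dex, all S211A+MDFIC Dex arrays shared slide 3 with replicate 3 of S211A+MDFIC vehicle, and the remaining 4 arrays made up slide 2. One probe of the MDFIC accession (NM_199072) lay between -3.24 and -2.92 on the 6 arrays without MDFIC and between 5.29 and 6.17 on the 6 arrays with it, and its other probe showed no such split. The labelled fibroblast-like morphology was set against a short marker list. Probes listed for the mesenchymal genes VIM and S100A4 and for the epithelial genes KRT8, KRT18, EPCAM and CDH1 were well above background on 12 arrays, that for the fibroblast collagen COL1A2 on at most 1 array. Blood and endothelial markers were mixed: CD3E, CD14 and KDR were well above background on 12 arrays, CDH5 on 6, PECAM1 on 2 and PTPRC on 0. Their part in the results was not tested.

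Levels are given as the log2 signal of an array minus the log2 of that array's 75th percentile, so that 0 is the level at that percentile and 1 unit is a doubling. Levels of different probes are not comparable with each other, and only differences between groups are read. A gene is called changed at an adjusted p under 0.05 from limma, a linear model fitted to all accessions at once, with Benjamini-Hochberg adjustment over all 24587. Where an accession had several probes, the brightest stood for it.

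Dex changed 5 of the 32 Wnt genes in cells with S211A alone (S211A cells) and 2 in cells with S211A and MDFIC (S211A+MDFIC cells). FZD4, FZD1, SFRP1 and WISP1 rose and DKK1 fell in S211A cells. FZD4 rose and DKK1 fell in S211A+MDFIC cells as well, and there was no gene called only in those cells. The RNA is from whole cultures, so a change in every cell and a larger change in some cells cannot be told apart. MDFIC itself changed none of the 32 at the threshold, under vehicle or under Dex, and no Wnt gene had a Dex response that differed between the cells with and without MDFIC at the threshold.

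The 5 called genes in S211A cells are 15.6% of the 32, beside 6.45% of all 24587 accessions. By direction, 4 rose, against 4.35% of all accessions, and 1 fell, against 2.10%. The 2 called genes in S211A+MDFIC cells are 6.25% of the 32, beside 9.93% of all accessions, and of these 1 rose, against 5.90%, and 1 fell, against 4.03%. Which of these shares is the larger turned with the samples in both kinds of cell. In S211A cells only FZD4 was called without S211A vehicle replicate 1 or 3 or S211A Dex replicate 1 or 3. That 1 of the 32 stood beside 4.16%, 4.68%, 6.8% and 3.68% of all accessions. In S211A+MDFIC cells, without S211A+MDFIC vehicle replicate 1 or replicate 2, 2 of the 32 stood beside 4.69% and 4.97%. Without S211A+MDFIC Dex replicate 2, 6 stood beside 18.3% in those cells. The median log2 difference of the 32 was 0.07 in cells without MDFIC and 0.00 in cells with it, beside 0.02 and 0.04 over all accessions. The vehicle and Dex arrays did not overlap for 16 of the 32 genes without MDFIC and for 8 with it, where 25.8% and 31.1% of all accessions did not overlap. The split depended on the scaling: with each array centred on its median, 0 rose and 3 fell in S211A cells (CCND1, DKK1 and GSK3B), and with another background correction 2 rose and 2 fell. With slide as a fixed block in the model, 3 of the 32 were called for Dex in S211A cells (FZD4, SFRP1 and SP5), where 2.73% of all accessions were called. For Dex with MDFIC this block left 0 of the 32 and 2.36% of all accessions, and for MDFIC under vehicle 1, SP5, and 0.297%. For Dex with MDFIC 4 had an unadjusted limma p under 0.05, with no share of all accessions beside them. Elsewhere the slide block, or slide as a block, means this fixed block. With slide as a random block, 6 of the 32 were called in S211A cells, the 5 and APCDD1, beside 7.34% of all accessions. FZD4 and DKK1 then stayed called with MDFIC, beside 11.8%.

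**Figure D1:**
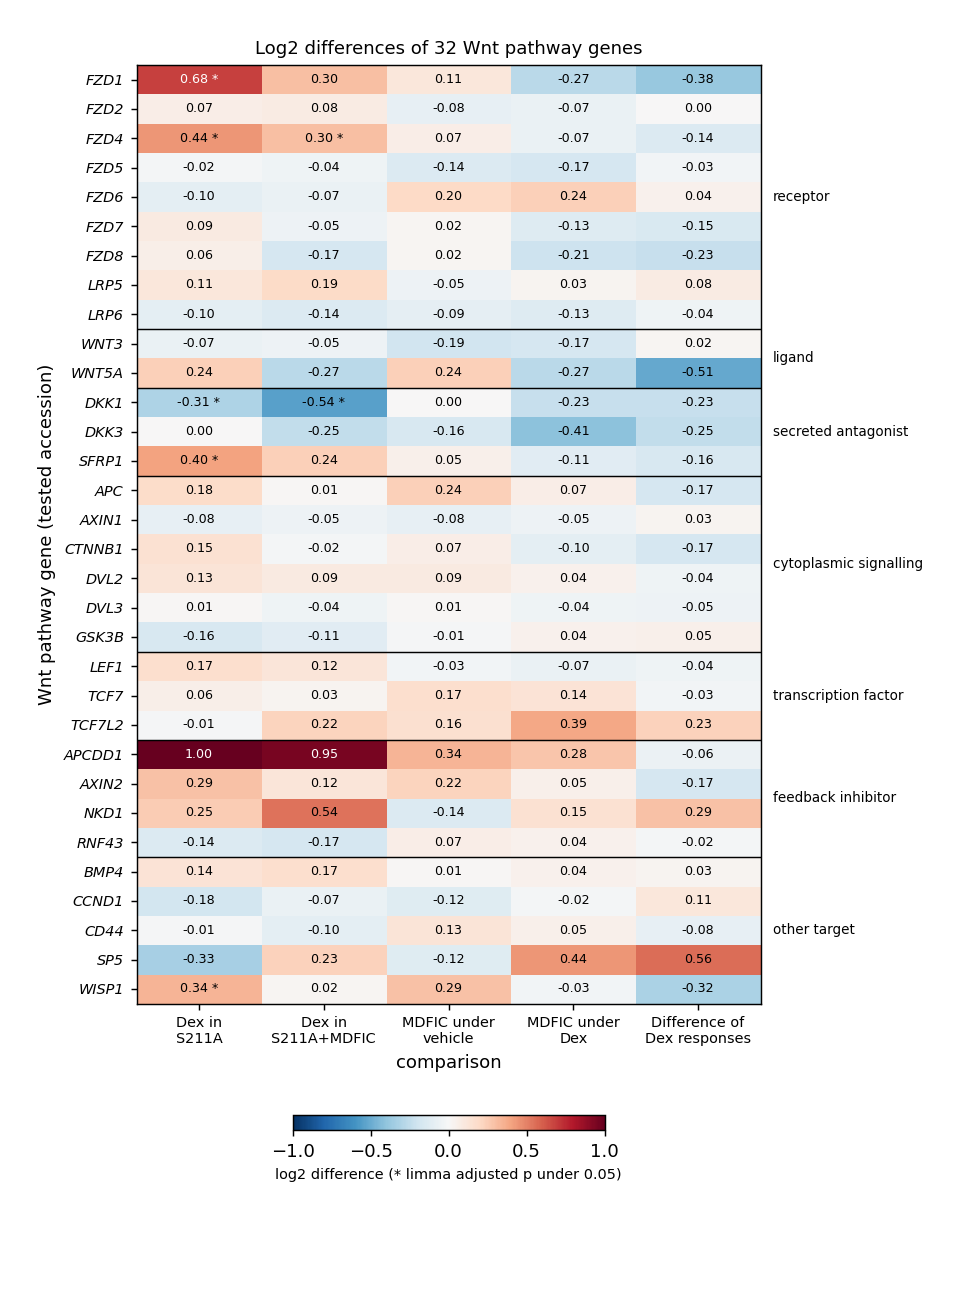
Log2 differences of the 32 tested Wnt genes (rows, grouped by role) in the 5 comparisons (columns); colour and number give the difference, and an asterisk marks a limma adjusted p under 0.05. The asterisks stand only in the 2 Dex columns, at FZD1, FZD4, DKK1, SFRP1 and WISP1 in S211A cells and at FZD4 and DKK1 in S211A+MDFIC cells.

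Among the receptors, FZD4 and FZD1 rose and the other 7 tested receptors did not pass the test. FZD4 (NM_012193) is a Frizzled that also serves as the receptor for norrin in vessel growth. Its level was 1.19, 1.09 and 1.14 on the S211A vehicle arrays and 1.61, 1.57 and 1.56 on the S211A Dex arrays. With MDFIC it was 1.21, 1.32 and 1.11 under vehicle and 1.44, 1.60 and 1.50 under Dex. All 6 Dex arrays lay above all 6 vehicle arrays. The rise was 0.44 (SE 0.06, 95% interval 0.30 to 0.59, limma adjusted p = 0.0029), or 1.36-fold, in cells without MDFIC and 0.30 (SE 0.06, adjusted p = 0.0175), or 1.24-fold, in cells with it. A dimmer probe for FZD4 gave 0.51 and 0.43, with limma probe-level adjusted p of 0.0527 and 0.0738. Under the slide block the differences were 0.47 (adjusted p = 0.0317) and 0.41 (adjusted p = 0.06), so the call in S211A+MDFIC cells was lost. With slide as a random block that call held. That call was also lost without S211A+MDFIC vehicle replicate 1, vehicle replicate 3 or Dex replicate 3 (adjusted p = 0.0661, 0.0581 and 0.0511).

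FZD1 (NM_003505) is a Frizzled of the canonical branch. Its level was 0.40, 0.48 and 0.28 on the S211A vehicle arrays and 1.24, 0.95 and 1.02 on the S211A Dex arrays. The corresponding levels with MDFIC were 0.55, 0.56 and 0.40 under vehicle and 0.65, 1.15 and 0.59 under Dex. The S211A groups were well apart, while among the S211A+MDFIC Dex arrays replicate 2 stood high and the others lay just above the vehicle arrays. The difference was 0.68 (SE 0.14, limma adjusted p = 0.0196), or 1.60-fold, in cells without MDFIC and 0.30 (SE 0.14, adjusted p = 0.217) in cells with it. The other, dimmer FZD1 probe went the opposite way, with -0.35 and -0.03, and the mean of both probes gave 0.16 in S211A cells (limma adjusted p = 0.415). The call was also lost with slide as a fixed block (0.85, limma adjusted p = 0.0833), though not with slide as a random block. Dropping S211A vehicle replicate 1 or 3 or S211A Dex replicate 1 or 3 lost it too (adjusted p = 0.062, 0.0704, 0.056 and 0.0582).

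The remaining receptors were the Frizzleds FZD2, FZD5, FZD6, FZD7 and FZD8 and the co-receptors LRP5 and LRP6. Their Dex differences ran from -0.10 to 0.11 in cells without MDFIC and from -0.17 to 0.19 in cells with it, and 0 of the 7 passed the test in either. FZD5, which had 3 tested probes, gave -0.02, 0.03 and -0.05 in S211A cells and -0.04, -0.10 and 0.30 in S211A+MDFIC cells. The 0.30 (SE 0.19, limma probe-level adjusted p = 0.343) came from its dimmest probe and lies outside the range above, which is of brightest probes. LRP6 gave -0.10 and -0.21 with its 2 probes in S211A cells and -0.14 and -0.15 in S211A+MDFIC cells, the same direction each time and short of the threshold.

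The ligands with a tested probe were WNT3, which acts through beta-catenin, and WNT5A (NM_003392), which acts mostly without it. Neither passed the test in any comparison. WNT5A stood at -0.60, -0.64 and -0.70 on the S211A vehicle arrays, -0.31, -0.50 and -0.41 on the S211A Dex arrays, -0.54, -0.27 and -0.42 on the S211A+MDFIC vehicle arrays and -0.90, -0.31 and -0.81 on the S211A+MDFIC Dex arrays. It lay higher under Dex on every S211A array, and lower under Dex on 2 of the 3 S211A+MDFIC arrays, with replicate 2 at the level of the vehicle arrays. Its Dex responses were 0.24 without MDFIC and -0.27 with MDFIC, and their difference of -0.51 (95% interval -0.95 to -0.07) had a limma adjusted p of 0.466. Without S211A+MDFIC Dex replicate 2 that difference was -0.69 (adjusted p = 0.0459), the Dex response with MDFIC was -0.45 (adjusted p = 0.0125) and the MDFIC difference under Dex was -0.45 (adjusted p = 0.0425), so that array decides whether WNT5A is called. WNT5A was singled out after its values were seen.

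Secreted antagonists moved in both directions. SFRP1 (NM_003012) binds Wnt ligands outside the cell, DKK1 (NM_012242) blocks LRP5 and LRP6, and DKK3 is a relative of DKK1 with a less settled role. SFRP1 was at 2.15, 2.20 and 2.06 on the S211A vehicle arrays and at 2.70, 2.36 and 2.54 on the S211A Dex arrays. In cells with MDFIC it was at 2.18, 2.18 and 2.20 under vehicle and at 2.35, 2.56 and 2.36 under Dex. Every Dex array lay above every vehicle array, with the widest spread among the S211A Dex arrays. The rise was 0.40 (SE 0.09, limma adjusted p = 0.0273), or 1.32-fold, in S211A cells, and the difference in S211A+MDFIC cells was 0.24 (SE 0.09, adjusted p = 0.128). Its second probe gave 0.24 (probe-level adjusted p = 0.182) and 0.39 (probe-level adjusted p = 0.0281), so each probe passed in the cells where the other did not. Under the slide block the difference in S211A cells was 0.57 (adjusted p = 0.0457). The call in S211A cells was lost without any 1 of the S211A arrays other than S211A Dex replicate 2, with adjusted p from 0.0575 to 0.0941.

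DKK1 was at -1.21, -1.11 and -1.21 on the S211A vehicle arrays and at -1.47, -1.49 and -1.49 on the S211A Dex arrays. The MDFIC arrays were at -1.12, -1.15 and -1.25 under vehicle and at -1.58, -1.83 and -1.72 under Dex. All 6 Dex arrays lay below all 6 vehicle arrays, and the 3 with MDFIC lay lowest. DKK1 fell by 0.31 (SE 0.07, limma adjusted p = 0.0255) in cells without MDFIC and by 0.54 (SE 0.07, 95% interval -0.69 to -0.38, adjusted p = 0.00106) in cells with it. The difference between these responses was -0.23 (95% interval -0.44 to -0.01, limma adjusted p = 0.488). Under Dex alone, DKK1 differed by -0.23 between cells with and without MDFIC (adjusted p = 0.206), and under vehicle by 0.00. Under the slide block the differences were -0.30 (adjusted p = 0.226) and -0.46 (adjusted p = 0.066), so neither call held. With slide as a random block both held. The call in S211A cells was also lost without any 1 of the 6 S211A arrays (adjusted p from 0.0514 to 0.096), while that in S211A+MDFIC cells held without any 1 of the 12 arrays (highest adjusted p 0.00804). DKK3 was not called, with Dex differences of 0.00 and -0.25 at its brightest probe and a difference of -0.41 between cells with and without MDFIC under Dex (adjusted p = 0.20). Its other tested probe was dimmer and scattered (SE 0.73), with Dex differences of 0.98 and 0.98 and an MDFIC difference under Dex of -0.11.

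**Figure D2:**
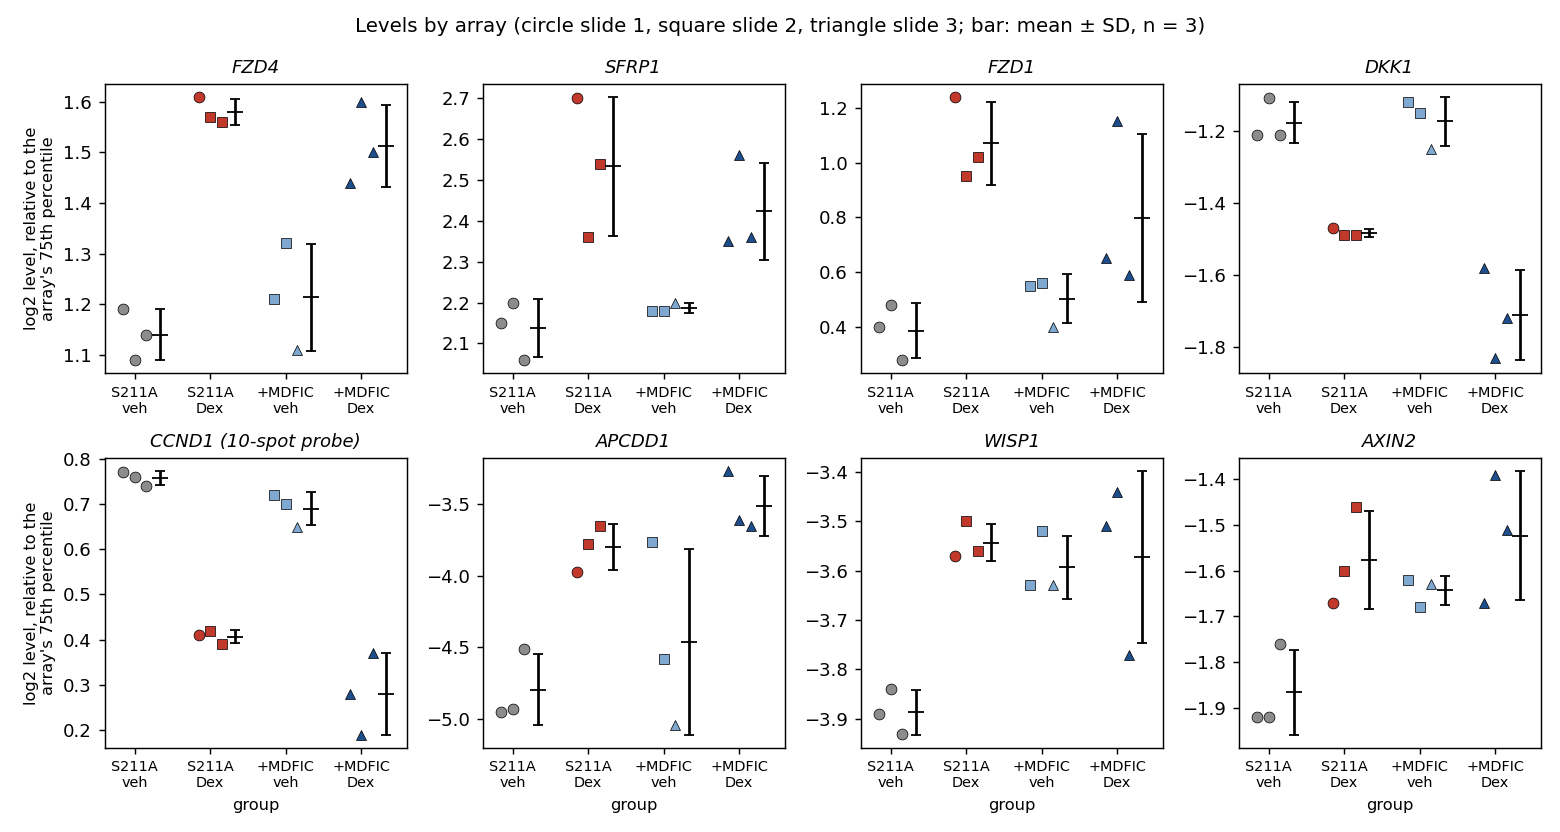
Log2 level on each array relative to that array's 75th percentile, for 8 Wnt genes in the 4 groups; each symbol is an array, its shape the slide, and the bar beside each group is the mean ± SD (n = 3). FZD4 and SFRP1 lie higher and DKK1 and the 10-spot CCND1 probe lower on all 6 Dex arrays than on all 6 vehicle arrays, while the S211A+MDFIC vehicle arrays of APCDD1 are spread from -5.04 to -3.76.

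The cytoplasmic proteins of the pathway did not pass the test in any comparison. These were AXIN1, APC and GSK3B of the destruction complex, its substrate CTNNB1, and DVL2 and DVL3. AXIN1 (NM_003502), the scaffold and a binding partner of MDFIC, was at 1.52, 1.45 and 1.46 on the S211A vehicle arrays and at 1.33, 1.40 and 1.44 on the S211A Dex arrays. Cells with MDFIC had 1.33, 1.46 and 1.40 under vehicle and at 1.32, 1.29 and 1.42 under Dex. The groups with and without MDFIC overlapped under both treatments. The MDFIC difference was -0.08 (95% interval -0.20 to 0.05, limma adjusted p = 0.546) under vehicle and -0.05 (-0.17 to 0.08, adjusted p = 0.734) under Dex, and under the slide block -0.17 (-0.43 to 0.09) and -0.09 (-0.34 to 0.17). The Dex differences were -0.08 and -0.05. GSK3B differed by -0.16 and -0.11 under Dex (adjusted p = 0.213 and 0.329), CTNNB1 by 0.15 and -0.02, and APC by 0.18 and 0.01. DVL2 and DVL3 stayed between -0.04 and 0.13 in both Dex comparisons.

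The transcription factors LEF1, TCF7 and TCF7L2, which carry beta-catenin to DNA, did not pass the test either. LEF1 (NM_016269), the other binding partner of MDFIC, was at -0.76, -0.78 and -0.80 on the S211A vehicle arrays and at -0.50, -0.68 and -0.66 on the S211A Dex arrays. Cells with MDFIC had -0.73, -0.76 and -0.94 under vehicle and at -0.83, -0.47 and -0.76 under Dex. The S211A arrays separated by treatment, and the S211A+MDFIC arrays did not. The Dex differences were 0.17 (limma adjusted p = 0.389) and 0.12 (adjusted p = 0.453). The MDFIC differences were -0.03 (95% interval -0.24 to 0.18) under vehicle and -0.07 (-0.29 to 0.14) under Dex. Their sign was not settled: the slide block gave 0.20 (-0.19 to 0.58) and 0.17 (-0.22 to 0.56), and the dimmer LEF1 probe 0.20 and 0.35. TCF7 was 0.17 and 0.14 higher in level with MDFIC under vehicle and Dex (adjusted p = 0.132 and 0.26), and the groups did not overlap in either.

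AXIN2, NKD1, APCDD1 and RNF43 are inhibitors that the pathway induces, and their Dex differences did not reach the threshold although several were among the widest of the 32. AXIN2 (NM_004655), the most used readout of beta-catenin activity, was at -1.92, -1.92 and -1.76 on the S211A vehicle arrays and at -1.67, -1.60 and -1.46 on the S211A Dex arrays. With MDFIC it was at -1.62, -1.68 and -1.63 under vehicle and at -1.67, -1.39 and -1.51 under Dex. The S211A vehicle arrays lay below the other 9 arrays. The Dex difference was 0.29 (SE 0.08, 95% interval 0.10 to 0.47, limma adjusted p = 0.0814) in cells without MDFIC and 0.12 (adjusted p = 0.409) in cells with it. The MDFIC difference was 0.22 (95% interval 0.04 to 0.41, adjusted p = 0.226) under vehicle and 0.05 (-0.13 to 0.24, adjusted p = 0.806) under Dex. The 3 low arrays all lie on slide 1, and the fourth array of that slide, S211A Dex replicate 1, was at -1.67. Under the slide block the AXIN2 differences were 0.19 (adjusted p = 0.585) for Dex in S211A cells and 0.08 (adjusted p = 0.871) for MDFIC under vehicle, comparisons that share those 3 arrays. The dimmer AXIN2 probe, well above background on 9 arrays, had its wider differences elsewhere. Its Dex difference was 0.16 without MDFIC and 0.69 with it, and its MDFIC difference 0.05 under vehicle and 0.58 under Dex. Each had SE 0.31 and none passed (limma probe-level adjusted p of 0.199 or more).

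APCDD1 (NM_153000), a membrane inhibitor of Wnt receptors, had the widest Dex difference of the 32 in both kinds of cell and was singled out after its values were seen. It was at -4.95, -4.93 and -4.51 on the S211A vehicle arrays and at -3.97, -3.78 and -3.65 on the S211A Dex arrays. Among the MDFIC arrays it was at -3.76, -4.58 and -5.04 under vehicle and at -3.27, -3.61 and -3.65 under Dex. Vehicle and Dex arrays did not overlap in either kind of cell, and the S211A+MDFIC vehicle arrays were the most scattered. The difference was 1.0 (SE 0.28, limma adjusted p = 0.0674), or 2.00-fold, in cells without MDFIC and 0.95 (SE 0.28, adjusted p = 0.0608), or 1.93-fold, in cells with it. Without S211A+MDFIC vehicle replicate 1, the highest of that group, both were called, at 1.0 (adjusted p = 0.0117) and 1.30 (adjusted p = 0.00652). Of 27 alternatives, APCDD1 was called in 6 in S211A cells and in 3 in S211A+MDFIC cells. Its signal was low, with a median of 54.5 over the 12 arrays, and under another background correction the difference in S211A cells was 0.30 (adjusted p = 0.17). With MDFIC the difference was 0.35 (adjusted p = 0.0589) under that correction and 1.53 (adjusted p = 0.0557) under the slide block.

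NKD1 (NM_033119), which binds Dishevelled, was at -3.26, -3.09 and -2.75 on the S211A vehicle arrays, -2.99, -2.68 and -2.67 on the S211A Dex arrays, -3.21, -3.13 and -3.17 on the S211A+MDFIC vehicle arrays and -2.38, -2.93 and -2.58 on the S211A+MDFIC Dex arrays. The groups with MDFIC were apart and those without MDFIC overlapped. Its Dex difference was 0.25 (limma adjusted p = 0.437) without MDFIC and 0.54 (adjusted p = 0.0629) with MDFIC, and the test of the difference between the responses gave 0.29 (95% interval -0.22 to 0.80, adjusted p = 0.68). Without S211A+MDFIC Dex replicate 2 the NKD1 difference with MDFIC was 0.69 and was called (adjusted p = 0.0185). That was 1 of 4 of the 27 alternatives in which NKD1 was called with MDFIC. RNF43, a ubiquitin ligase that removes Frizzled from the surface, had differences of -0.14 and -0.17.

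The other targets were WISP1, CCND1, BMP4, CD44 and SP5. WISP1 (NM_003882), a secreted matricellular protein now named CCN4, was at -3.89, -3.84 and -3.93 on the S211A vehicle arrays and at -3.57, -3.50 and -3.56 on the S211A Dex arrays. Among the MDFIC arrays it was at -3.63, -3.52 and -3.63 under vehicle and at -3.51, -3.44 and -3.77 under Dex. As for AXIN2, the 3 S211A vehicle arrays lay below the other 9. The rise was 0.34 (SE 0.08, limma adjusted p = 0.0354) in S211A cells and the difference with MDFIC was 0.02 (adjusted p = 0.901). The test of the difference between these responses gave -0.32 (95% interval -0.58 to -0.07, adjusted p = 0.428). This call was the least steady of the 5. It was lost with slide as a fixed block (0.32, limma adjusted p = 0.317), though not with slide as a random block. Another background correction lost the call as well (0.11, adjusted p = 0.522). It was also lost without any 1 of 8 of the 12 arrays, namely all 6 S211A arrays and S211A+MDFIC vehicle replicates 1 and 3 (adjusted p from 0.0552 to 0.112). The dimmer WISP1 probe, well above background on 9 arrays, gave Dex differences of 0.08 without MDFIC and 0.26 with it (SE 0.27 for each). Their limma probe-level adjusted p was 0.903 and 0.591.

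CCND1 (NM_053056), cyclin D1, which drives cells into the DNA synthesis phase, gave a result that depended on the probe, and was singled out after its values were seen. The brightest of its 3 probes gave Dex differences of -0.18 (limma adjusted p = 0.222) and -0.07 (adjusted p = 0.596), so CCND1 is not among the called genes. The probe printed in 10 spots on each array was at 0.77, 0.76 and 0.74 on the S211A vehicle arrays and at 0.41, 0.42 and 0.39 on the S211A Dex arrays. With MDFIC that probe was at 0.72, 0.70 and 0.65 under vehicle and at 0.28, 0.19 and 0.37 under Dex. The Dex arrays lay below the vehicle arrays with no overlap, and within each S211A group the 3 arrays were nearly equal. That probe gave -0.35 (SE 0.05, limma probe-level adjusted p = 0.00386) in cells without MDFIC and -0.41 (SE 0.05, adjusted p = 0.00136) in cells with it. The remaining probe gave -0.52 (SE 0.10, adjusted p = 0.0159) and -0.64 (SE 0.10, adjusted p = 0.00434). With the mean of all 3 probes CCND1 was called in both, at -0.35 (adjusted p = 0.00547) and -0.37 (adjusted p = 0.00329).

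SP5 (NM_001003845), a transcription factor and direct beta-catenin target, was at -0.61, -0.72 and -0.62 on the S211A vehicle arrays and at -1.60, -0.62 and -0.71 on the S211A Dex arrays with its brightest probe, and with MDFIC at -0.79, -0.94 and -0.58 under vehicle and at -0.42, -0.66 and -0.52 under Dex. S211A Dex replicate 1 was far below the rest, and the other S211A Dex arrays lay at the vehicle level. The difference was -0.33 (limma adjusted p = 0.464), or -0.02 without that array, and its other probes gave 0.23 and 0.32. With slide as a block SP5 was called for Dex in S211A cells (-0.95, adjusted p = 0.00455) and for MDFIC under vehicle (-1.14, adjusted p = 0.0275). That array is the only Dex array on slide 1. BMP4, a growth factor, differed by 0.14 and 0.17 under Dex, and CD44, a hyaluronan receptor, by -0.01 and -0.10, with no call.

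**Figure D3:**
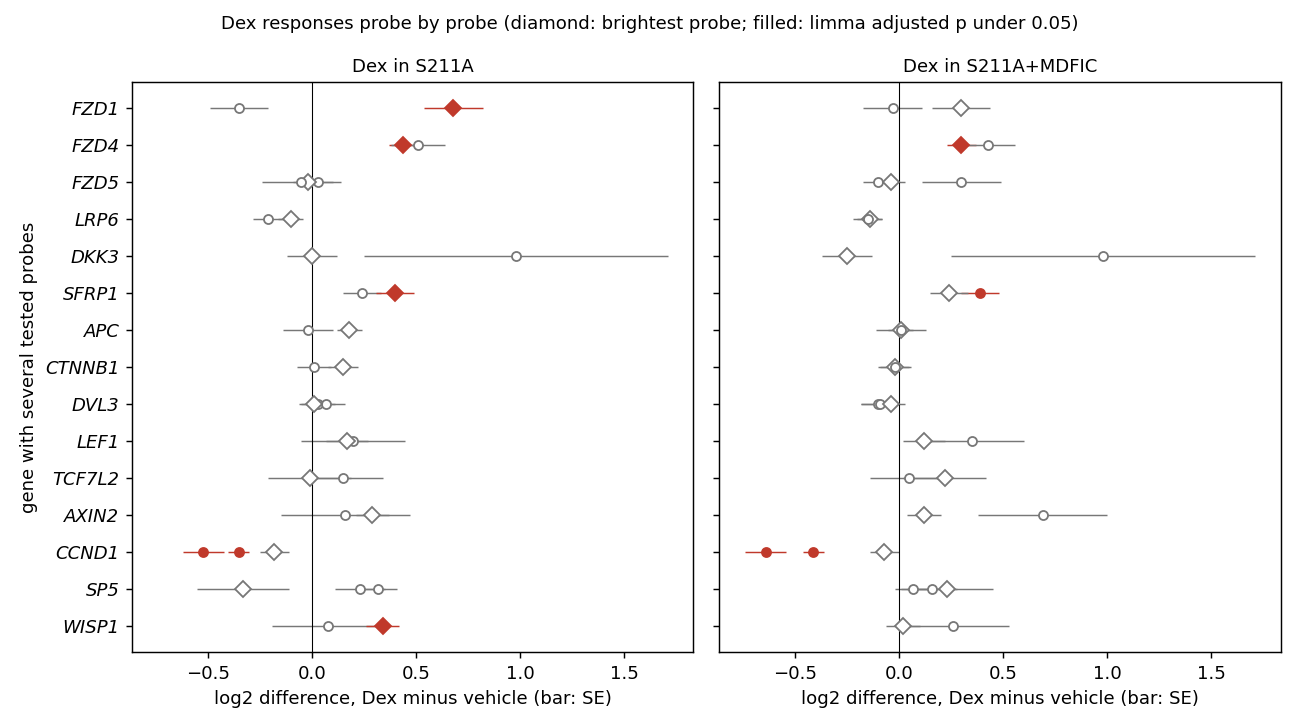
Dex minus vehicle log2 difference of each tested probe (points, bars are SE) for the 15 Wnt genes with several tested probes, in S211A cells (left) and S211A+MDFIC cells (right); diamonds mark the brightest probe, which stands for the gene, and filled red symbols a limma probe-level adjusted p under 0.05. The 2 further CCND1 probes lie at -0.52 and -0.35 on the left while its brightest lies at -0.18, and the FZD1 probes point in opposite directions.

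Probe agreement was therefore uneven over the family. Of the 15 genes with several tested probes, all probes had the same sign in 9 genes for Dex in S211A cells and in 12 for Dex in S211A+MDFIC cells. Tested probe by probe, 7 of the 51 Wnt probes were called in S211A cells, where 6.14% of all 31232 tested probes were called, and 5 in S211A+MDFIC cells, where 9.41% were.

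The Dex responses with and without MDFIC come from separate arrays and can be set side by side. FZD4 and DKK1 were called in both, in the same direction, and FZD1, SFRP1 and WISP1 only in S211A cells. That pattern alone does not show a difference: the test of the difference between the responses called 0 of the 32 genes with limma, where 0.273% of all accessions were called, and 3 had an unadjusted p under 0.05 (DKK1, WISP1 and WNT5A), which is 9.38% beside 9.84% of all accessions. For FZD1 the difference was -0.38 (95% interval -0.83 to 0.06), for SFRP1 -0.16 (-0.45 to 0.12) and for FZD4 -0.14 (-0.34 to 0.07). The 95% interval of the difference lay within 0.5 of 0 on the log2 scale for 23 of the 32 genes and within 1 for 31 (17 and 26 under the slide block), so responses that differ by up to those amounts could go unseen here.

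**Figure D4:**
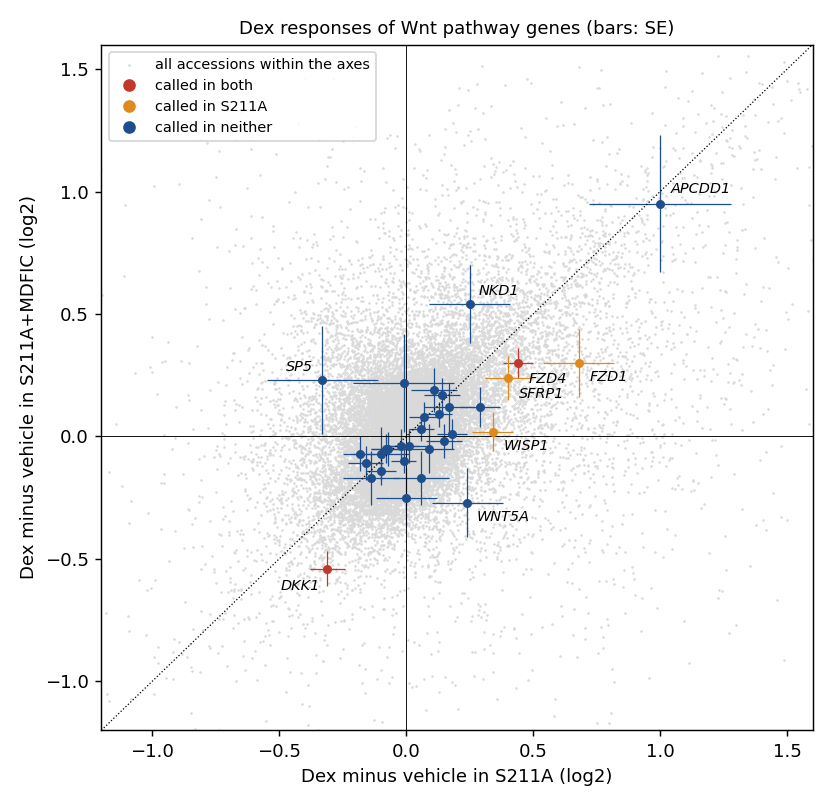
Dex minus vehicle log2 difference in S211A cells (x axis) against that in S211A+MDFIC cells (y axis) for the 32 tested Wnt genes (coloured points, bars are SE) over all accessions within the axes (grey); the dotted line marks equal responses. FZD4 and DKK1, called in both, lie on opposite sides of 0, and FZD1, SFRP1 and WISP1, called in S211A cells only, lie below the line.

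MDFIC changed 0 of the 32 genes under vehicle and 0 under Dex at the threshold with limma, where 0.988% and 0.435% of all accessions were called, and 6 genes had an unadjusted p under 0.05 in each. That is 18.8% of the 32, near the 16.3% of all accessions under vehicle and the 13.6% under Dex. Under vehicle these were APC (0.24), WISP1 (0.29), AXIN2 (0.22), TCF7 (0.17), CD44 (0.13) and WNT3 (-0.19), with adjusted p of 0.111 or more. Under Dex they were DKK3 (-0.41), DKK1 (-0.23), TCF7 (0.14), FZD5 (-0.17), WNT3 (-0.17) and FZD6 (0.24), with adjusted p of 0.20 or more. Under the slide block TCF7 stood at 0.13 and 0.16 in the 2 comparisons, WNT3 at 0.03 and -0.02, and FZD5 under Dex at 0.06. Dimmer tested probes of these genes gave 0.07 for APC, 0.01 for WISP1 and 0.05 for AXIN2 under vehicle. Under Dex they gave 0.00 and 0.46 for FZD5 and -0.11 for DKK3. The median MDFIC difference of the 32 was 0.02 under vehicle and -0.03 under Dex. The 95% interval lay within 0.5 of 0 for 27 genes under vehicle and 25 under Dex, and within 1 of 0 for all 32 in both. Under the slide block these counts were 15 and 19 within 0.5, and 26 and 30 within 1. No slide held arrays of both groups of either MDFIC comparison, so these have no within-slide value.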

How the data were processed

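The 12 arrays were assigned to groups by their titles. The authors deposited linear intensity per spot, made per the file headers with Feature Extraction 12.0.0.7 (version 12 per the submitters' processing notes), background-subtracted and detrended. A series-wide deposited table held the same values in all 45015 rows of each array. The 1639 control spots were left out and 945 outlier spots set to missing. The log2 signal was averaged over the spots of a probe, and each array's 75th percentile over these probe values was then subtracted. A probe was kept if some group had it well above background on its 3 arrays and each group had 2 values or more (31232 of 41000). The tests used limma 3.58.1 in R 4.3.3 over all 12 arrays, two-sided, with no term for slide. The fit was tested on simulated data: for Dex in S211A, 50.5% of log2 changes of 0.5 and 77.5% of changes of 1 were recovered among 24587 accessions, and 2% and 66.5% for the interaction of Dex and MDFIC. Noise was drawn separately for each array from each accession's spread within groups, with 200 accessions changed and no slide effect. The rates therefore do not cover a difference between slides or another number of changed accessions. In the data 1587 and 2441 were called for Dex and 67 for the interaction. For MDFIC under vehicle 48.5% and 72% of such changes were recovered, and for MDFIC under Dex 39.5% and 78%.

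The genes and lists were chosen with earlier results of these data known. Genes called in any comparison, AXIN1, LEF1 and AXIN2 were to be given in full, as were other Wnt genes called, up to the 8 with the smallest adjusted p. Of the latter only 4 are named, so that rule was not followed in full. The symbols of these 4, like those of the rest, come only from the written list of Wnt genes. Replicate numbers were not treated as pairs. Deviations from the group means of the 18 same-numbered pairs of arrays correlated between -0.26 and 0.25, with a median of 0.04. For the 36 pairs with different numbers the range was -0.21 to 0.31 and the median -0.01. These values do not settle whether the replicates were paired. The alternatives tried were other background corrections, scalings, filters, probe choices and variance models, slide and replicate blocks, single slides and each array left out. No sequence is given, since probe sequences were not used here. Figures were drawn with matplotlib 3.10.9.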

Additional observations from a re-analysis of the deposited data

Results flagged for a closer look

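Both results concern Wnt genes outside the 36, and both were picked out because their Dex response differed between cells with and without MDFIC by a test of the difference itself. WNT6 (NM_006522), a Wnt ligand, was at 4.33, 4.20 and 4.32 on the S211A vehicle arrays, 3.94, 4.0 and 4.01 on the S211A Dex arrays, 3.90, 3.84 and 3.98 on the S211A+MDFIC vehicle arrays and 4.44, 4.30 and 4.38 on the S211A+MDFIC Dex arrays. It fell by 0.30 under Dex without MDFIC and rose by 0.46 with MDFIC, and the responses differed by 0.76 (SE 0.08, limma adjusted p = 0.0303). With slide as a block the difference was 0.73 (adjusted p = 0.117), and the other WNT6 probe gave -0.40.

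NKD2 (NM_033120), a relative of the inhibitor NKD1, was at 1.85, 1.82 and 1.89 on the S211A vehicle arrays, 1.46, 1.54 and 1.43 on the S211A Dex arrays, 1.36, 1.33 and 1.65 on the S211A+MDFIC vehicle arrays and 2.19, 1.99 and 2.02 on the S211A+MDFIC Dex arrays. It fell by 0.38 without MDFIC and rose by 0.62 with MDFIC, a difference of 1.0 (SE 0.13, limma adjusted p = 0.0303). With slide as a block the difference was 0.82 (adjusted p = 0.124), and the other NKD2 probe gave -0.55. For both genes the calls were lost without any 1 of 9 of the 12 arrays; they held without replicate 2 of S211A vehicle, replicate 3 of S211A+MDFIC vehicle or replicate 2 of S211A+MDFIC Dex. With the mean of both probes the differences were 0.18 for WNT6 (adjusted p = 0.684) and 0.23 for NKD2 (adjusted p = 0.862).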

How the results depend on the processing

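The number of the 32 Wnt genes called for Dex was 5 without MDFIC and 2 with it. It was 3 and 1 with each array centred on its median (5.35% and 6.72% of all accessions), 0 and 0 on the deposited table without scaling (2.06% and 2.11%; 5 and 5 of the 32 at an unadjusted p under 0.05 with limma), and 3 and 0 with slide as a fixed block (4 at an unadjusted p under 0.05 in S211A+MDFIC cells). The fixed block called 2.73% and 2.36% of all accessions, and also 1 gene, SP5, for MDFIC under vehicle. With slide as a random block the Dex counts were 6 and 2 (7.34% and 11.8%). All these percentages are shares at the adjusted threshold, so the counts at an unadjusted p have no share beside them. Within slide 1 and within slide 3 each fit has 1 array on one side, assumed to vary like the others, so its counts are not read. In S211A+MDFIC cells the count was 4 with probes required above background on all 12 arrays (13.5% of all accessions), 4 with the mean of all probes (9.70%), 4 with trend and robust variances (12.8%) and 1 with only the compared groups fitted (5.10%). With the probe of most spots, an alternative chosen after seeing the data, the counts were 6 and 3 (6.49% and 9.97%). With the replicate number as a block, the Dex counts were 4 and 2 (5.10% and 8.30%), and the MDFIC counts stayed at 0.

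Leaving out each array in turn gave 1 to 5 genes for Dex in S211A and 1 to 6 for Dex in S211A+MDFIC. It gave 0 for MDFIC under vehicle, 0 to 1 for MDFIC under Dex and 0 to 1 for the difference between the Dex responses. In the same order, 3.68% to 7.26%, 4.69% to 18.3%, 0.275% to 1.66%, 0.143% to 2.82% and 0% to 1.01% of all accessions were called. The 6 genes, and WNT5A as the 1 gene in each of the last 2 comparisons, came without S211A+MDFIC Dex replicate 2. That fit called 18.3%, 2.82% and 1.01% of all accessions in these comparisons. Of 27 alternatives, the within-slide fits included, the calls in S211A cells held in 24 for FZD4, 18 for DKK1, 18 for FZD1, 16 for SFRP1 and 10 for WISP1, and those with MDFIC in 24 for DKK1 and 19 for FZD4. Of the other Wnt genes, 8 were called in any comparison, against 3 on the table without scaling, 4 with slide as a fixed block and 6 to 13 with an array left out. No share over all accessions stands beside these counts, so they are not read against a background. With 3 arrays a group and human probes on monkey RNA, dim probes such as those of APCDD1 and WISP1 limit what can be read.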

Other observations

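A further 68 Wnt pathway genes were listed by accession. The files do not pair these accessions with symbols, and the pairs come from the list itself. Of the 68, 56 had a probe and 52 were tested. Dex changed 7 of the 52 in S211A cells (5 rose and 2 fell) and 6 in S211A+MDFIC cells (5 rose and 1 fell), which are 13.5% and 11.5% beside 6.45% and 9.93% of all accessions. MDFIC changed 1 under vehicle and 2 under Dex, and 2 differed in their Dex response, which are 1.92%, 3.85% and 3.85% beside 0.988%, 0.435% and 0.273% of all accessions. Of the 52, 4 were called under the slide block for Dex in S211A cells, 3 of them the same, and 1 with MDFIC. These stood beside 2.73% and 2.36% of all accessions. For MDFIC under vehicle the block called 1 other accession, beside 0.297% of all. For MDFIC under Dex and the difference between the responses it called 0, beside 0.0488% and 0.163%. Without the block 10 and 5 of the 52 had an unadjusted limma p under 0.05. That is 19.2% and 9.62%, where 13.6% and 9.84% of all accessions did.

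TLE3 (NM_005078), a corepressor that occupies TCF factors when beta-catenin is absent, had the smallest adjusted p. It was at -0.41, -0.55 and -0.47 on the S211A vehicle arrays and 0.33, 0.33 and 0.31 on the S211A Dex arrays, and at -0.49, -0.48 and -0.59 and then 0.26, 0.35 and 0.31 with MDFIC. The Dex arrays lay above the vehicle arrays by several times the spread within a group. TLE3 rose by 0.80 (SE 0.05, limma adjusted p = 1.86e-05) and by 0.83 (SE 0.05, adjusted p = 1.38e-05), or 1.74-fold and 1.78-fold. With slide as a block the rises were 0.80 (adjusted p = 0.00156) and 0.90 (adjusted p = 0.00121), its other probe gave 0.59 and 0.75, and the difference between the responses was 0.03 (95% interval -0.14 to 0.20).

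FRZB (NM_001463), a secreted antagonist related to SFRP1, was at -2.82, -2.66 and -2.81 on the S211A vehicle arrays and -2.13, -2.17 and -2.13 on the S211A Dex arrays. With MDFIC it was at -2.54, -2.75 and -2.59 under vehicle and -2.16, -2.28 and -2.23 under Dex. All Dex arrays lay above all vehicle arrays. FRZB rose by 0.62 (SE 0.07, limma adjusted p = 0.000463) and by 0.40 (SE 0.07, adjusted p = 0.00583), and its other probe gave 0.58 and 0.48. With slide as a block the call with MDFIC was lost (0.37, adjusted p = 0.161).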
